A study of Homo sapiens with 12 samples.

Results

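The 10 genes described here encode subunits of the transcription factor NF-kB, its feedback inhibitors and a set of its classic effector genes: NFKB1, NFKB2, RELA, RELB, NFKBIA, TNFAIP3, BIRC3, CXCL8, CXCL1 and ICAM1. They were taken by symbol from the 60666 human rows of the count table, and all 10 were among the 20791 human genes with enough counts to be tested. Their mRNA was followed in DLD-1, a human colorectal adenocarcinoma line, in 12 poly(A)-selected libraries that form 6 groups of 2. One line, SPT6-AID OsTIR1, carried an auxin-inducible degron on SPT6, a histone chaperone and elongation factor bound to transcribing RNA polymerase II; the other, PAF1-AID OsTIR1, carried it on PAF1, the namesake subunit of the PAF1 complex, which also acts in elongation. Each line was sequenced after 0, 2 and 6 h of 500 µM auxin, which drives OsTIR1 to mark the tagged protein for degradation, so the design asks how these mRNAs change as SPT6 or PAF1 is removed. Cells of every group expressed OsTIR1 constitutively. No untagged cells given auxin were analysed here, so an effect of auxin itself cannot be told apart from loss of the tagged protein, and the labels do not say whether a line is 1 clone. The labels also do not say that the 2 libraries of a group came from separate cultures. The p-values thus measure the spread between these libraries, which may be technical. In the main edgeR fit each gene had 1 estimate of spread over all 6 groups. A standard error or p-value in 1 line thus also carries the spread between libraries of the other line.

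NF-kB factors are dimers of REL-family proteins that inhibitory IkB proteins hold in the cytoplasm of resting cells. Cytokine and stress signals activate the IkB kinases, which mark the inhibitor for destruction in the canonical pathway and drive the processing of the NFKB2 precursor in the alternative pathway, and the freed dimers then bind kB elements in target genes. Some of the first targets, NFKBIA and TNFAIP3 among them, encode inhibitors of the same pathway, so a burst of activity shuts itself off; in intestinal epithelium the pathway is best known for driving neutrophil-attracting chemokines and survival genes.

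CXCL8, CXCL1 and NFKBIA are shown with the bases before their starts, because among the 10 genes CXCL8 and CXCL1 varied most between the libraries of a group and NFKBIA had the smallest p at 2 h in SPT6-AID cells. The sequences are RefSeq promoter windows on GRCh38.p14, written 5′ to 3′ on the strand of the gene, with capitals marking the matches to the kB-type motif GGANNTTCC on either strand. NFKBIA lies at chr14:35404750-35404999 on the minus strand, CXCL8 at chr4:73740319-73740505 on the plus strand and CXCL1 at chr4:73869143-73869392 on the plus strand. The CXCL8 stretch ends after 187 bases because the other 63 lie inside the gene as annotated in GENCODE 29.
NFKBIA: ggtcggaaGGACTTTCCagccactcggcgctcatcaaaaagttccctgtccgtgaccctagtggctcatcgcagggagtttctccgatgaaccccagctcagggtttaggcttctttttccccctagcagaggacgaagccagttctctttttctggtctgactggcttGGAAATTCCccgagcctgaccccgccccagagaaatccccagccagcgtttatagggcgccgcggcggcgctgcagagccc
CXCL8: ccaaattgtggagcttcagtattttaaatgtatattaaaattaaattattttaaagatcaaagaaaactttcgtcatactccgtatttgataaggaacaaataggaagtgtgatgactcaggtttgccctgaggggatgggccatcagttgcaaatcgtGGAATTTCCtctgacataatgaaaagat
CXCL1: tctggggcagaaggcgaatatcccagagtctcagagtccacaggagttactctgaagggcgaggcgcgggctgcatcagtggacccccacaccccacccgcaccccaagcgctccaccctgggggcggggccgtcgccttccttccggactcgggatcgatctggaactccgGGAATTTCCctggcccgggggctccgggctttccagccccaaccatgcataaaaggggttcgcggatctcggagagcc
CXCL8 also carries a match to the AP-1-type motif TGANTCA, and NFKBIA carries 2 separate kB-type matches.

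RefSeq windows of the 250 bases before a gene start were found for 9 of the 10 genes, in 13 windows; the table used here has no entry for RELB. GGANNTTCC, or GGAANNTCC on the other strand, was present in 7 of the 13 windows, each from a different gene. It was present in 3.84% of all 35116 windows of that length. The 7 genes were NFKB1, NFKB2, NFKBIA, TNFAIP3, CXCL8, CXCL1 and ICAM1, and the windows of RELA and BIRC3 held no match. By GENCODE 29 positions, the ICAM1 window and the NFKB2 window with the match lie wholly inside the gene. Windows of NFKB1, RELA, TNFAIP3, BIRC3 and CXCL8 lie partly or wholly inside theirs. Such windows precede a RefSeq start and are not all upstream of the annotated gene. A looser kB pattern, of 3 G, any 5 bases and 2 C on either strand, was present in 12 of the 13 windows and in all 9 genes. It was also present in 54.4% of all windows, and it can overlap the stricter one. TGANTCA was present in 1 of the 13 windows, that of CXCL8, against 6.57% of all windows. Such a match describes the letters only and is not a binding site or a cause of any value below, and the absence of one says nothing about the factor.

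The libraries held 29961183 to 110340057 human counts. The count of the targeted mRNA did not check the depletion, since auxin acts on protein: SUPT6H, which encodes SPT6, stood between 496 and 557 CPM (counts scaled to a common TMM-adjusted library total) in the SPT6-AID libraries, and PAF1 stood between 116 and 131 CPM in the PAF1-AID libraries. A set of 8 epithelial markers summed to 3215 to 6056 CPM in every library. Markers of blood cells, fibroblasts and endothelium each summed to at most 3.38 CPM, and the leukocyte marker PTPRC did not pass 0.239 CPM. The blood-cell sum was nevertheless 1.82 to 2.00 CPM in SPT6-AID cells at 6 h, against 0.411 to 0.691 CPM at 0 h. CD14, CD79A and the endothelial gene PECAM1 were called higher in SPT6-AID cells at 6 h. In PAF1-AID cells the blood-cell sum was 1.12 to 1.16 CPM at 6 h, against 0.619 to 0.730 CPM at 0 h. The part of such transcripts in the values below was not tested. In bulk RNA, fewer cells with an mRNA and less of it per cell cannot be told apart.

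Per unit of transcript length, the NF-kB subunits were well expressed and the chemokines were low in most libraries. TPM divides counts by the deposited transcript length and scales each library to 1 total. For the genes of the DNA-binding subunits, the median TPM over the 12 libraries was 107.5 for NFKB2, 56.3 for RELA, 49.7 for NFKB1 and 41.8 for RELB. Among the targets, the adhesion molecule ICAM1 had a median of 78.8 TPM and the inhibitor NFKBIA one of 75.4 TPM. TNFAIP3, a ubiquitin-editing inhibitor of the pathway, had a median of 8.86 TPM, CXCL8 one of 8.39 TPM, BIRC3 one of 5.96 TPM and CXCL1 one of 3.88 TPM. With all 10 genes in order of their medians, the ranges over libraries overlapped between every pair of neighbours, from 49.7 to 148 TPM for NFKB2 at the top and from 0.136 to 60.0 TPM for CXCL1 at the bottom.

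**Figure D1:**
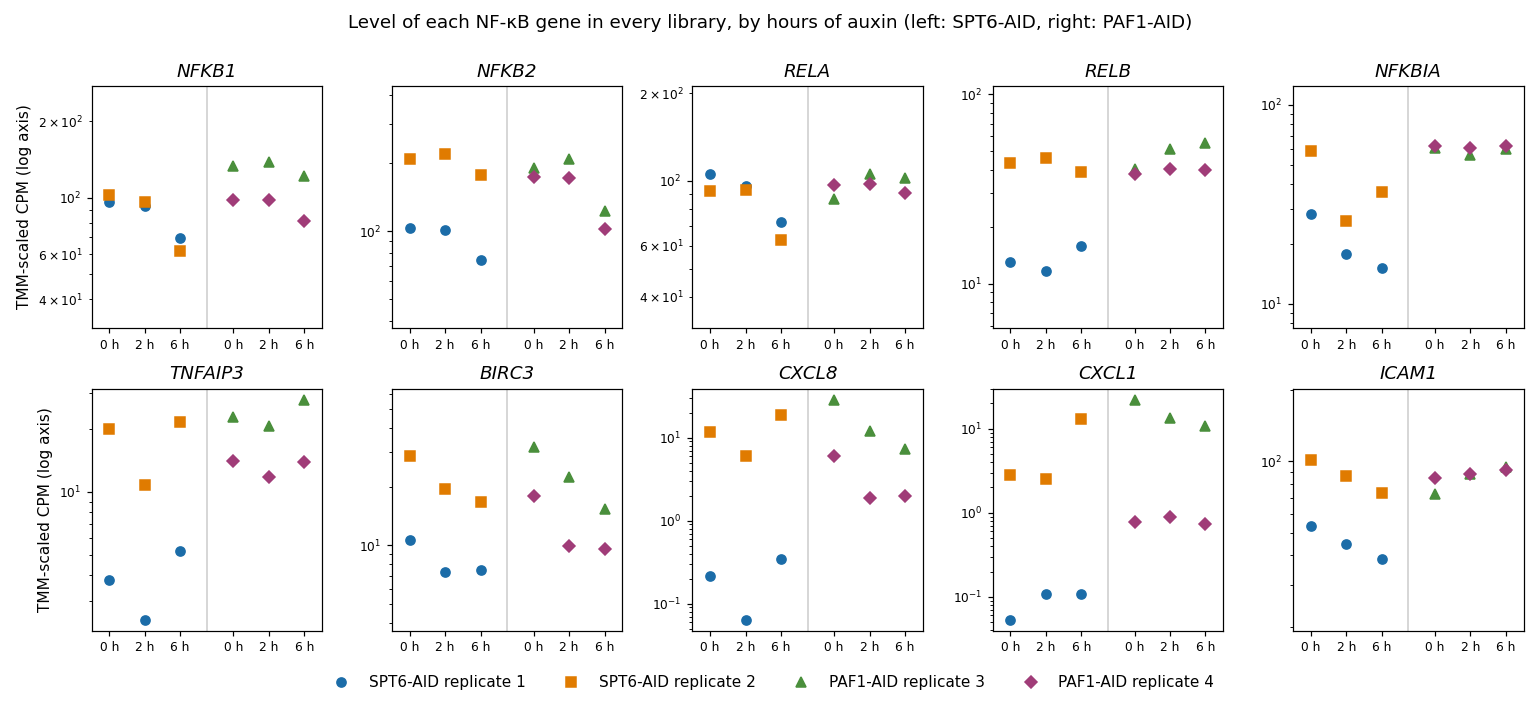
TMM-normalised CPM of the 10 genes in each of the 12 libraries on a log axis, with 1 panel per gene and the groups in order of hours of auxin within each line. Points are single libraries; CXCL8, CXCL1 and TNFAIP3 are lower in replicate 1 than in replicate 2 of SPT6-AID at each time.

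The 2 libraries of a group stood apart for most of the inducible genes, and this bears on each test of them. Gene positions in the following are those of GENCODE 29 on GRCh38. Where a pair of values is given for a group in the following, it is in the order of the replicate numbers, which are 1 and 2 in SPT6-AID and 3 and 4 in PAF1-AID. CXCL8 (chr4:73740506-73743716, plus strand), the gene of the neutrophil attractant known as IL-8, had 0.214 and 11.6 CPM in SPT6-AID cells at 0 h, 0.0643 and 5.97 CPM at 2 h and 0.348 and 18.8 CPM at 6 h. In PAF1-AID cells it had 28.8 and 6.01 CPM at 0 h, 12.2 and 1.87 CPM at 2 h and 7.22 and 2.01 CPM at 6 h. Replicate 1 was the low library of SPT6-AID and replicate 4 the low library of PAF1-AID at all 3 times, and the ranges of the times overlapped in both lines. The counts behind the low SPT6-AID values were 12, 3 and 16, against 623, 639 and 538 in replicate 2. The ratio of replicate 2 to replicate 1 was 54.3 at 0 h with an exact 95% interval of 30.9 to 106, and at 2 h and 6 h it was 92.9 (31.7 to 452) and 54.0 (33.0 to 95.2); these intervals cover counting error only.

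CXCL1 (chr4:73869393-73871242, plus strand), a chemokine of the same family, showed the same split. It had 0.0536 and 2.80 CPM in SPT6-AID cells at 0 h, 0.107 and 2.53 CPM at 2 h and 0.109 and 13.0 CPM at 6 h. In PAF1-AID cells it had 22.2 and 0.780 CPM at 0 h, 13.4 and 0.902 CPM at 2 h and 10.8 and 0.738 CPM at 6 h. Replicate 3 was the high library of PAF1-AID throughout, and the low SPT6-AID values rested on 3, 5 and 5 counts. The ratio of replicate 2 to replicate 1 was 52.3 (17.6 to 257) at 0 h, 23.7 (10.0 to 73.4) at 2 h and 119 (50.6 to 369) at 6 h. CXCL2 and CXCL3 are separate genes related to CXCL1. The division of reads between the 3 genes was not tested and is uncertain.

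TNFAIP3 (chr6:137867188-137883312, plus strand) was split in the same direction and by less. Its replicate 2 CPM was 5.31, 4.42 and 4.17 times that of replicate 1 at 0, 2 and 6 h, and its replicate 4 value was 0.615, 0.566 and 0.499 times that of replicate 3. RELA (chr11:65653596-65663094, minus strand), the main activating subunit of the canonical pathway, was by contrast even: the log2 CPM of replicate 2 less that of replicate 1 was −0.20, −0.05 and −0.21 at the 3 times, and that of replicate 4 less replicate 3 was 0.16, −0.11 and −0.17. For NFKB1 the same differences were 0.09, 0.05 and −0.17 in SPT6-AID and −0.44, −0.49 and −0.59 in PAF1-AID.

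The genes between these extremes were also higher in replicate 2 of SPT6-AID. RELB (chr19:45001430-45038198, plus strand) was higher there by 1.72, 1.98 and 1.30 on the log2 scale at 0, 2 and 6 h, BIRC3 by 1.43, 1.41 and 1.15, NFKB2 by 1.01, 1.12 and 1.26, ICAM1 by 0.94, 0.95 and 0.93 and NFKBIA by 1.04, 0.55 and 1.26. In SPT6-AID 7, 6 and 7 of the 10 genes differed by more than 1 on the log2 scale between the 2 libraries of a time, against 9.08%, 8.03% and 10.5% of all genes tested. In PAF1-AID 2, 3 and 2 of the 10 did, against 10.2%, 8.12% and 7.40% of all genes. The median size of the difference was 1.24, 1.26 and 1.26 for the 10 genes in SPT6-AID, against 0.27, 0.27 and 0.36 for all genes, and 0.33, 0.42 and 0.53 in PAF1-AID, against 0.29, 0.21 and 0.23.

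**Figure D2:**
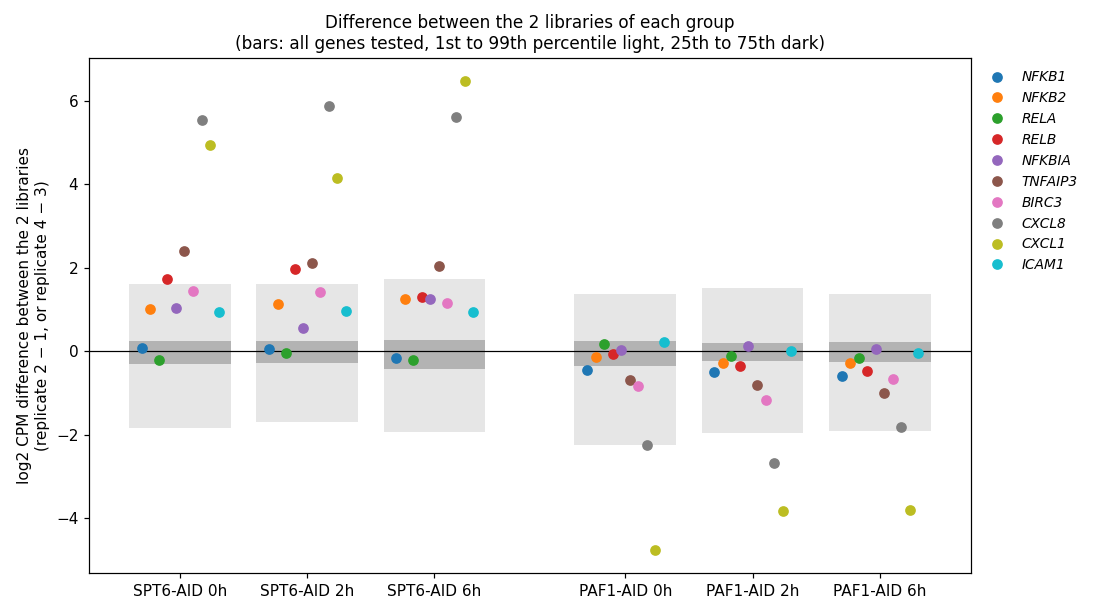
Difference in log2 CPM between the 2 libraries of each group (replicate 2 less replicate 1 in SPT6-AID, replicate 4 less replicate 3 in PAF1-AID) for the 10 genes, as coloured points over bars that hold the 1st to 99th (light) and 25th to 75th (dark) percentiles of all genes tested. CXCL8 and CXCL1 lie at 4.15 or above in SPT6-AID and at −1.83 or below in PAF1-AID, and RELA lies between −0.21 and 0.16 in all 6 groups.

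Some other NF-kB targets also differed between the libraries of a group. Of 25 other target genes tested, 5, 6 and 6 differed by more than 2 on the log2 scale between the SPT6-AID libraries at 0, 2 and 6 h, all higher in replicate 2. Between the PAF1-AID libraries 5 did so at each time, all lower in replicate 4. Of all genes tested, 1.27%, 1.05% and 1.55% differed by more than 2 in either direction in SPT6-AID at these times. In PAF1-AID 1.68%, 1.33% and 1.08% of all genes did. The chemokine genes CCL20, CXCL5, CXCL3 and CXCL2 and the receptor gene TNFRSF9, named here after their values were seen, passed 2 at all 3 SPT6-AID times. CXCL5, CXCL3 and the chemokine gene CCL2 did so at all 3 PAF1-AID times. CCL2 ran the other way in SPT6-AID, with differences of −1.93, −1.61 and −0.55 (replicate 2 less replicate 1), and PTGS2 and IL1A were also lower in replicate 2 there. CXCL5 had 68.8 and 926 CPM in SPT6-AID cells at 0 h, and 3157 and 516 CPM in PAF1-AID cells. None of CCL20, CXCL5, CXCL3, CXCL2, TNFRSF9 and CCL2 passed the edgeR threshold against 0 h at either time in either line. What sets the 2 libraries of a group apart was not tested, and the labels give no batch.

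RELA was the only one of the 10 genes to pass the main test after auxin, and it did so in SPT6-AID cells at 6 h. That test took no account of the replicate number. With the number as a block, more of the 10 genes and more of all genes were called in each line, as given further below. It had 106 and 92.1 CPM at 0 h, 95.9 and 92.7 CPM at 2 h and 72.5 and 62.5 CPM at 6 h in SPT6-AID cells. Both 6 h libraries lay below both 0 h libraries and both 2 h libraries. RELA fell by 0.55 on the log2 scale at 6 h (SE 0.13, adjusted p = 0.0114, edgeR quasi-likelihood test over all 20791 genes), and its log2 difference at 6 h from 2 h was −0.48 (SE 0.13, edgeR adjusted p = 0.0319). Of all genes tested 25.2% were called in the comparison of 6 h with 0 h, 16.4% as lower, and 15.7% were called in that of 6 h with 2 h, so 1 of 10 genes is not more than that background. RELA overlaps AP001362.2 on the opposite strand, which had 589 counts over the 12 libraries, against 58674 for RELA. Without SPT6-AID 0 h replicate 1 the adjusted p of the fall from 0 h was 0.0860, and without SPT6-AID 6 h replicate 2 it was 0.0756.

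NFKB1 (chr4:102501329-102617302, plus strand), whose product is the partner subunit of RELA, also had lower values at 6 h and did not pass the threshold. It had 96.3 and 102 CPM at 0 h, 92.8 and 96.1 CPM at 2 h and 69.3 and 61.6 CPM at 6 h in SPT6-AID cells. The 6 h libraries lay below the 0 h libraries, with a log2 fold change of −0.60 (SE 0.22, edgeR adjusted p = 0.0745). NFKB2 (chr10:102394110-102402529, plus strand) and RELB, the subunits of the alternative pathway, had log2 fold changes of −0.31 (SE 0.45) and −0.05 (SE 0.65) at 6 h in SPT6-AID cells, and their libraries overlapped between the times. NFKB2 had 74.2 and 178 CPM at 6 h, against 104 and 209 CPM at 0 h. RELB had 15.7 and 38.8 CPM at 6 h, against 13.1 and 43.2 CPM at 0 h.

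In PAF1-AID cells the subunit genes gave no call at 2 h or 6 h. RELA had 86.6 and 97.0 CPM at 0 h, 106 and 97.6 CPM at 2 h and 102 and 91.0 CPM at 6 h, and the 2 h libraries lay above those of 0 h while the 6 h libraries overlapped them. Its log2 fold change was 0.15 (SE 0.13) at 2 h and, at 6 h, 0.08 (SE 0.13, edgeR adjusted p = 0.784). NFKB2 had the lowest 6 h values relative to 0 h among the subunits, with 190.4 and 174 CPM at 0 h, 209 and 171 CPM at 2 h and 123 and 102 CPM at 6 h. Both 6 h libraries were below both earlier pairs, and the log2 fold change from 0 h was −0.69 (SE 0.45, edgeR adjusted p = 0.378). That SE also carries the spread of NFKB2 in SPT6-AID, where its libraries differed by 1.01 to 1.26 on the log2 scale. In PAF1-AID they differed by −0.13 to −0.29. The NFKB2 value was called in 5 of 25 alternatives, over which it ran from −1.09 to −0.58. The share of all genes called in each is not given here. NFKB1 had 133 and 97.9 CPM at 0 h, 138 and 98.2 CPM at 2 h and 122 and 81.2 CPM at 6 h, and RELB had 40.2 and 38.1 CPM, 51.3 and 40.1 CPM, and 55.3 and 39.7 CPM at the same times. The ranges of both genes overlapped between the times, and the log2 fold changes at 6 h were −0.19 (SE 0.22) for NFKB1 and 0.28 (SE 0.65) for RELB.

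Of the feedback genes, NFKBIA had the smallest p at 2 h in SPT6-AID cells and did not pass the threshold. NFKBIA (chr14:35401511-35404749, minus strand) encodes IkB-alpha, the inhibitor that NF-kB itself induces to end a response. It had 28.4 and 58.6 CPM at 0 h, 17.7 and 26.1 CPM at 2 h and 15.1 and 36.4 CPM at 6 h in SPT6-AID cells. Both 2 h libraries lay below both 0 h libraries, while the 6 h libraries overlapped those of 0 h. The log2 fold change was −0.99 at 2 h (SE 0.39, edgeR adjusted p = 0.529) and −0.76 at 6 h (SE 0.39, edgeR adjusted p = 0.193). The 2 h value was −0.37 without SPT6-AID 0 h replicate 2 and −1.42 without 0 h replicate 1, and the 6 h value passed the threshold without 6 h replicate 2, at −1.52 (edgeR adjusted p = 0.0295). In PAF1-AID cells NFKBIA had 61.0 and 62.0 CPM at 0 h, 56.4 and 61.1 CPM at 2 h and 59.8 and 62.3 CPM at 6 h. These 6 libraries lay close together, with log2 fold changes of −0.07 and −0.01 (SE 0.39 each). The log2 difference between the 2 libraries of a time was 0.02, 0.12 and 0.06. The SE is wider because it also carries the spread between the SPT6-AID libraries.

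TNFAIP3 and BIRC3 gave no call in either line. TNFAIP3 had 3.79 and 20.1 CPM at 0 h, 2.44 and 10.8 CPM at 2 h and 5.22 and 21.8 CPM at 6 h in SPT6-AID cells. The ranges of the times overlapped. Set beside the 0 h library of the same number, both 2 h values were lower, by log2 differences of −0.62 and −0.90, and both 6 h values were higher, by 0.46 and 0.11. The log2 fold changes were −0.83 (SE 0.87) at 2 h and 0.17 (SE 0.87, edgeR adjusted p = 0.910) at 6 h, and the 2 h value ran from −2.29 without SPT6-AID 2 h replicate 2 to 0.82 without 0 h replicate 2. In PAF1-AID cells TNFAIP3 had 22.9 and 14.1 CPM at 0 h, 20.7 and 11.7 CPM at 2 h and 27.8 and 13.9 CPM at 6 h. These ranges overlapped too, with log2 fold changes of −0.19 (SE 0.87) at 2 h and 0.17 (SE 0.86, edgeR adjusted p = 0.933) at 6 h. TNFAIP3 overlaps AL357060.1 on the opposite strand, which had 442 counts over the 12 libraries, against 8871 for TNFAIP3.

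BIRC3 (chr11:102317450-102339403, plus strand) encodes a ubiquitin ligase that restrains cell death downstream of tumour necrosis factor receptors. Its values after auxin were lower than in the same-numbered 0 h library in all 8 such pairs, with log2 differences of −0.50 to −1.06. Each 0 h library serves in both its 2 h and its 6 h pair, so the 8 differences are not independent. The labels do not say that the numbers pair libraries. The share of all genes lower in every such pair is not given here. In SPT6-AID cells BIRC3 had 10.7 and 28.8 CPM at 0 h, 7.33 and 19.5 CPM at 2 h and 7.52 and 16.7 CPM at 6 h. In PAF1-AID cells it had 31.8 and 17.8 CPM at 0 h, 22.5 and 9.94 CPM at 2 h and 15.3 and 9.64 CPM at 6 h. The PAF1-AID libraries of 6 h lay below those of 0 h and the SPT6-AID libraries overlapped; the log2 fold changes at 6 h were −0.71 (SE 0.63, edgeR adjusted p = 0.453) in SPT6-AID cells and −0.99 (SE 0.63, edgeR adjusted p = 0.363) in PAF1-AID cells.

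Among the effector genes, CXCL8 and CXCL1 gave no call in either line, and their standard errors were the widest of the 10 genes. CXCL8 had log2 fold changes of −0.93 (SE 1.87) at 2 h and 0.68 (SE 1.86, edgeR adjusted p = 0.825) at 6 h in SPT6-AID cells. The 6 h value ran from −4.08 without SPT6-AID 6 h replicate 2 to 5.43 without 0 h replicate 2. In PAF1-AID cells the log2 fold changes of CXCL8 were −1.32 (SE 1.87) at 2 h and −1.91 (SE 1.90, edgeR adjusted p = 0.593) at 6 h. Beside the same-numbered 0 h library, CXCL8 was lower at 2 h in all 4 pairs, by −0.96 to −1.67 on the log2 scale. Beside the same 0 h libraries, at 6 h it was higher in SPT6-AID cells, by 0.61 and 0.69. In PAF1-AID cells it was lower at 6 h, by −1.99 and −1.56. The share of all genes with such a pattern is not given here. CXCL1 had a log2 fold change of 2.18 (SE 2.19, edgeR adjusted p = 0.515) at 6 h in SPT6-AID cells and of −0.996 (SE 2.05, edgeR adjusted p = 0.820) in PAF1-AID cells. The SPT6-AID value rested on replicate 2, in which CXCL1 had 13.0 CPM at 6 h, against 2.80 CPM at 0 h; replicate 1 had 5 counts at 6 h, against 3 at 0 h.

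ICAM1 (chr19:10270835-10286615, plus strand), which binds leukocyte integrins, differed in direction between the lines in value only. It had 53.1 and 102 CPM at 0 h, 44.8 and 86.7 CPM at 2 h and 38.4 and 73.4 CPM at 6 h in SPT6-AID cells, and these ranges overlapped. In PAF1-AID cells it had 73.1 and 85.1 CPM at 0 h, 88.3 and 88.8 CPM at 2 h and 94.3 and 91.7 CPM at 6 h, with the later libraries above those of 0 h. The log2 fold changes at 6 h were −0.47 (SE 0.37, edgeR adjusted p = 0.402) in SPT6-AID cells and 0.23 (SE 0.37, edgeR adjusted p = 0.758) in PAF1-AID cells.

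**Figure D3:**
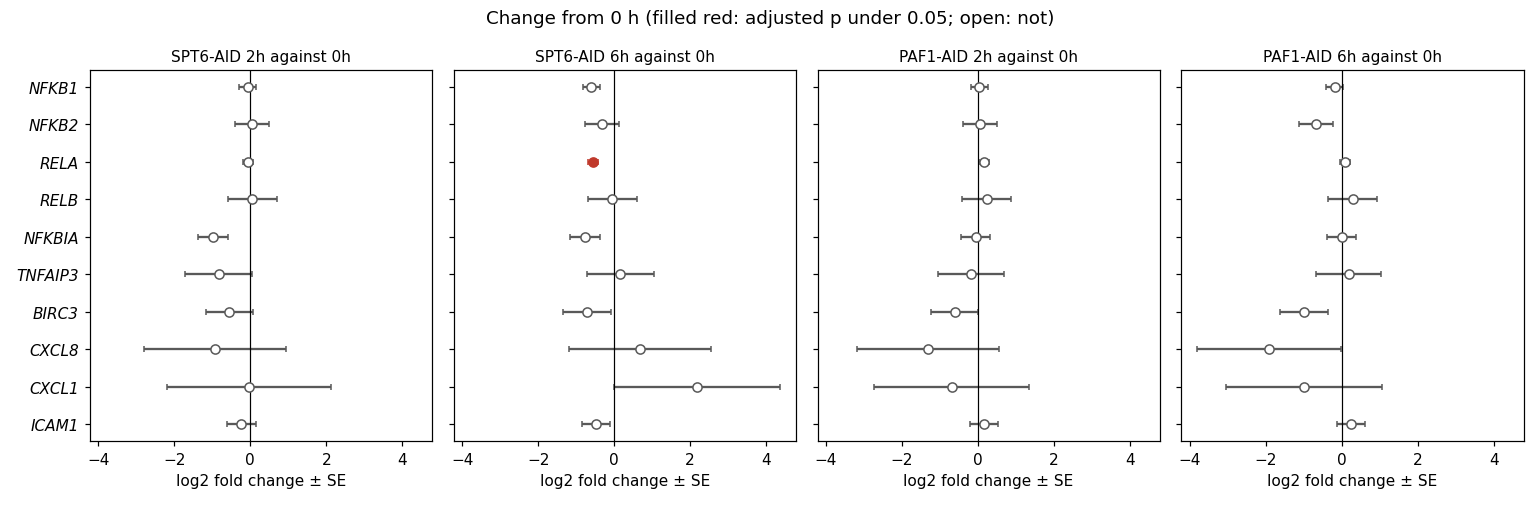
Log2 fold change from 0 h of the 10 genes at 2 and 6 h of auxin in each line, as points with bars of 1 standard error on either side, both from the edgeR fit. RELA at 6 h in SPT6-AID, at −0.55, is the one value past the adjusted threshold of 0.05, and the bars of CXCL8 and CXCL1 are the longest.

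In counts, edgeR called 0 of the 10 genes in SPT6-AID cells at 2 h, where 0.548% of all genes were called; NFKBIA alone had an unadjusted edgeR p under 0.05, at 0.0300, and DESeq2 and limma-voom called 0. In PAF1-AID cells edgeR called 0 of the 10 genes at 2 h, against 0.149% of all genes, and 0 at 6 h, against 10.9%. DESeq2 and limma-voom also called 0 at both PAF1-AID times, and no member had an unadjusted edgeR p under 0.05. The median log2 fold change of the 10 genes was −0.15 at 2 h and −0.39 at 6 h in SPT6-AID cells, against 0.01 and 0.04 for all genes tested. In PAF1-AID cells it was −0.02 at 2 h and −0.10 at 6 h, against 0.01 and 0.02 for all genes. When the counts of fly genes in the same libraries set the scale, the median of all genes at 6 h moved to −0.39 in SPT6-AID cells and −0.37 in PAF1-AID cells. On that scale RELA stood at −0.97, NFKB1 at −1.02, NFKBIA at −1.26 and ICAM1 at −0.95 at 6 h in SPT6-AID cells, all 4 called by edgeR, as were 32.7% of all genes on that scale, 28.1% as lower. TNFAIP3 turned to −0.36 there, and in PAF1-AID cells at 6 h RELA turned to −0.31, RELB to −0.12, TNFAIP3 to −0.26 and ICAM1 to −0.15, none of them called.

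The other comparisons gave no call. Between 6 h and 2 h in PAF1-AID cells edgeR called 0 of the 10 genes, against 0.875% of all genes, with NFKB2 at a log2 difference of −0.76 (SE 0.45, edgeR adjusted p = 0.530). For the response of SPT6-AID less that of PAF1-AID, edgeR called 0 of the 10 genes at 2 h, against 0.0337% of all genes, and 0 at 6 h, against 3.74%. RELA came nearest at 6 h, with a difference of −0.63 (SE 0.18, edgeR adjusted p = 0.0973). In this fit the fall of RELA in SPT6-AID cells was thus not shown to differ from its response in PAF1-AID cells. The RELA difference was called with the replicate number as a block (edgeR adjusted p = 0.00191). The share of all genes called for the difference with that block is not given here. The labels do not say what a number marks. The NFKBIA difference was −0.92 (SE 0.55) at 2 h and −0.75 (SE 0.55, edgeR adjusted p = 0.615) at 6 h. Between SPT6-AID and PAF1-AID cells at 0 h edgeR called 0 of the 10 genes, against 0.0337% of all genes; CXCL1 had the widest difference, at −3.01 (SE 2.23, edgeR adjusted p = 0.872). By DESeq2 and by limma-voom these 4 counts were also 0, and an unadjusted edgeR p under 0.05 occurred once among them, for RELA in the difference at 6 h.

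Among the other genes of the pathway, several receptors, adaptors and kinases upstream of NF-kB fell at 6 h in each line. Of 73 other pathway genes in 4 lists, 64 were tested. At 6 h in SPT6-AID cells 14 of the 64 fell and 0 rose, against 16.4% of all genes called lower and 8.76% called higher. In either direction 25.2% of all genes were called, so 14 calls among 64 genes are not more than that background. The largest edgeR adjusted p among the 14 was 0.0485. The fallen genes were 5 of 16 receptor and adaptor genes, 5 of 12 kinase and ubiquitin enzyme genes, 1 of 11 other regulators and 3 of 25 other targets. Without SPT6-AID 6 h replicate 2 fewer of these 14 were called. When fly counts set the scale 24 fell, these 14 included, against 28.1% of all genes called lower on that scale. Some settings also called genes higher: 4 by DESeq2, 4 without a filter on low counts, 4 with a mean of at least 1 CPM and 2 with DESeq2 size factors. Rises were also called without SPT6-AID 6 h replicate 1. With the replicate number as a block, 13 were called higher and 25 lower. Apart from fly totals, the share of all genes called in each direction in these settings is not given here. TNFRSF1A, TRAF2, BIRC2, MAP3K14, TAB1, OTULIN and BCL2L1 were called in all 25 alternatives run.

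Among receptors and adaptors, TNFRSF1A, the main receptor for tumour necrosis factor, averaged 68.1 ± 4.01 CPM at 0 h, 51.3 ± 1.48 CPM at 2 h and 22.2 ± 3.88 CPM at 6 h in SPT6-AID cells (SD, n = 2 each), and fell by 1.61 on the log2 scale (SE 0.15). The adaptors TRAF2 and TRAF6 fell by 1.56 (SE 0.19) and 1.49 (SE 0.27), and BIRC2, a close relative of BIRC3, fell by 0.70 (SE 0.11). Among the kinase genes MAP3K14, which encodes the kinase that starts the alternative pathway, fell by 1.96 (SE 0.29) and IKBKB, a catalytic subunit of the IkB kinase, by 0.68 (SE 0.15). TAB1, which activates the kinase encoded by MAP3K7, fell by 2.02 (SE 0.39), and MAP3K7 itself fell by 0.47 (SE 0.12). OTULIN, which removes linear ubiquitin chains, averaged 34.6 ± 0.682 CPM at 0 h, 25.7 ± 1.73 CPM at 2 h and 9.96 ± 1.00 CPM at 6 h (SD, n = 2 each), and fell by 1.79 (SE 0.14). The fallen targets were the survival genes BCL2L1 and TNFAIP8, at −0.77 (SE 0.11) and −0.70 (SE 0.17), and the kinase gene RIPK2, at −0.74 (SE 0.19).

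At 6 h in PAF1-AID cells 8 of the 64 fell and 2 rose, against 6.7% and 4.2% of all genes; the largest edgeR adjusted p among the 10 was 0.0352. TNFRSF1A, IL1R1 (a receptor for interleukin-1) and TRAF2 fell by 1.04 (SE 0.15), 1.28 (SE 0.29) and 0.70 (SE 0.18) on the log2 scale, and IKBKB and MAP3K14 fell by 0.87 (SE 0.15) and 1.12 (SE 0.28). Of the targets IER3, LIF and TNFAIP8 fell by 1.29 (SE 0.16), 0.91 (SE 0.17) and 0.75 (SE 0.17). The mitochondrial superoxide dismutase gene SOD2 rose by 0.88 (SE 0.14) and the transcription factor gene IRF1 by 0.91 (SE 0.19). Fewer of the 10 were called without PAF1-AID 0 h replicate 3, 6 h replicate 3 or 6 h replicate 4. Without all 3 libraries of replicate 3, or of replicate 4, the calls were lost. Such fits leave 1 library in a group, and the share of all genes called in them is not given here. These losses are therefore not set against a background. IRF1 was not called when fly counts set the scale.

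**Figure D4:**
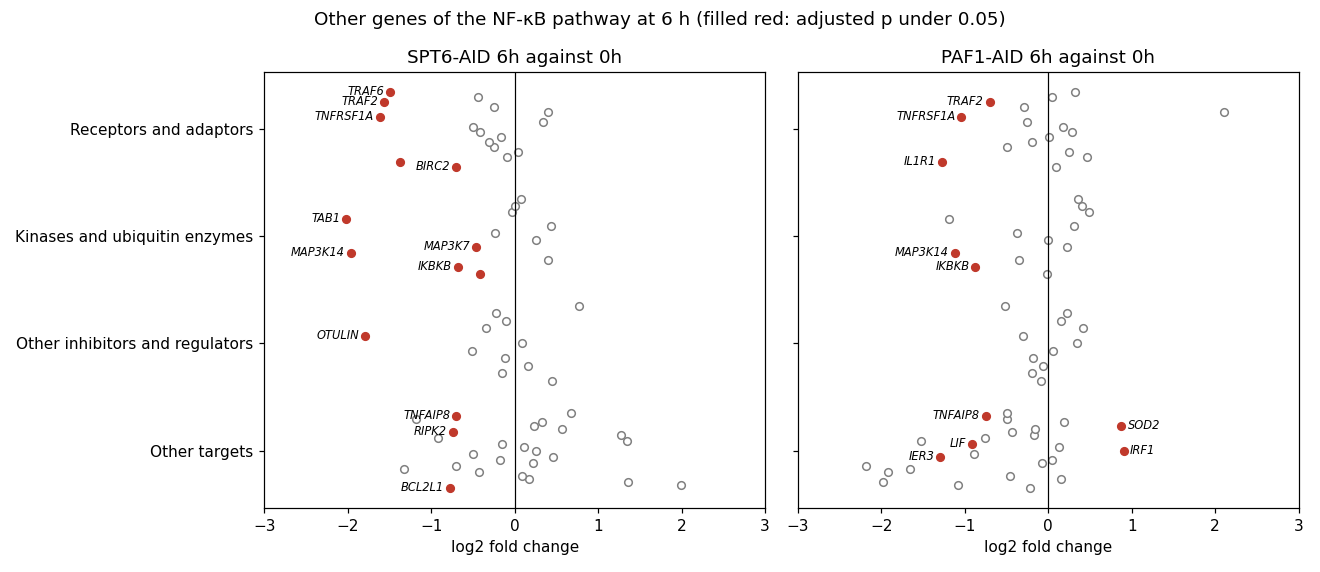
Log2 fold change at 6 h from 0 h of the 64 other pathway genes in each line, by list, with called genes in colour and up to 4 called genes per list and direction named. In this edgeR fit all 14 called genes lie below 0 in SPT6-AID, where DESeq2 called 13 lower and 4 higher; 8 lie below 0 and 2 above in PAF1-AID.

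Between 6 h and 2 h, 9 of the 64 fell and 2 rose in SPT6-AID cells, against 10.4% and 5.32% of all genes, with IER3 at 0.75 (SE 0.16) and IRF1 at 0.71 (SE 0.19) as those that rose. Fewer of these 11 were called without SPT6-AID 2 h replicate 1, 2 h replicate 2 or 6 h replicate 2, and the 2 rises were lost in each case. These fits leave 1 library in a group, and the share of all genes called in them is not given here. At 2 h edgeR called 0 of these 64 genes in either line, with 8 at an unadjusted p under 0.05 in SPT6-AID cells and 5 in PAF1-AID cells, against 7.42% and 7.39% of all genes. DESeq2 called 3 as lower at 2 h in SPT6-AID cells, against 2.18% of all genes, and 0 in PAF1-AID cells, and limma-voom called 0 in both. The response of SPT6-AID less that of PAF1-AID at 6 h was called for 4 of the 64: OTULIN at −1.49 (SE 0.20), TRAF6 at −1.82 (SE 0.38), BIRC2 at −0.80 (SE 0.16) and the early response gene IER3 at 1.75 (SE 0.23). Of all genes 3.74% were called there. IER3 averaged 165 CPM at 0 h, 135 CPM at 2 h and 227 CPM at 6 h in SPT6-AID cells, and 241 CPM at 0 h, 167 CPM at 2 h and 98.3 CPM at 6 h in PAF1-AID cells. Fewer of these 4 were called without any 1 of SPT6-AID 0 h replicate 1, 0 h replicate 2 or 6 h replicate 2. The same held without any 1 of PAF1-AID 0 h replicate 3, 0 h replicate 4 or 6 h replicate 3. All 4 calls were lost without PAF1-AID 6 h replicate 4, and 1 remained when fly counts set the scale. For these fits too the share of all genes called is not given here.

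The genes whose 4 log2 fold changes from 0 h lay nearest to those of a member were found among the 13420 genes whose mean log2 CPM reached 1, by the root mean square difference over the 4 values. For NFKBIA they included ZNF557 and CHAMP1, at 0.09 and 0.11. For TNFAIP3 they were ZNF222, TOPORS and RNF139, at 0.04, 0.10 and 0.11. For CXCL8 they were HAS2, DACT1 and RASSF9, at 0.12, 0.19 and 0.35, and for RELB they included MRPS34 and ATP9A, at 0.01 and 0.02. The members' own fold changes carry the standard errors given above, so these neighbours are a description of 4 values each.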

How the data were processed

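The values are whole-number counts of reads per gene, as the authors deposited them in 1 table for 12 poly(A)-selected libraries made with a directional kit, per the labels' protocols. The submitters' processing notes name cutadapt 1.14, STAR 2.7.5 and featureCounts 2.0.0 with the builds GRCh38 and BDGP6; the annotation release and the strand setting of the counting are not given in the sources used here, so counts of genes that overlap on opposite strands are uncertain. The 17807 fly rows were kept out of library sizes and tests and held 3.94% to 6.25% of all counts.

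Human counts were filtered with filterByExpr, scaled by TMM and tested with edgeR 4.0.16 (quasi-likelihood F test, 6 group means over the 12 libraries) in R 4.3.3, with Benjamini-Hochberg adjustment over 20791 genes and a threshold of 0.05. Standard errors were taken as the log2 fold change over the root of F. Levels are TMM-scaled CPM, and levels compared between genes are TPM from the transcript lengths deposited with the counts. Log2 differences between single libraries used a prior count of 2. The scripts were tested on simulated data.

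Alternatives were other scalings, other filters, DESeq2 1.42.0, limma-voom (limma 3.58.1), a fit of each line by itself, a block for the replicate number and each library left out; leaving out all 3 libraries of a number was added after seeing the data. All 10 members are named; genes of other lists are named if called, up to the 4 with the smallest p per list, comparison and direction, and 3 genes nearest to each of 4 members, of which some are not reported here. The members and lists were chosen with earlier results of these data known. With 2 libraries a group, no single value has a permutation test that could pass the threshold.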

Additional observations from a re-analysis of the deposited data

How the results depend on the processing

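Of the 10 genes, the number called moved as follows from 0 and 1 after 2 h and 6 h of SPT6 depletion, 0 and 0 after 2 h and 6 h of PAF1 depletion, 1 and 0 between 6 h and 2 h in SPT6-AID and PAF1-AID cells, and 0 in the other 3 comparisons. Fly totals gave 4 at 6 h in SPT6-AID cells. Each line alone gave 2 and 1 at 6 h in SPT6-AID and PAF1-AID cells, and 0 between 6 h and 2 h in SPT6-AID cells, as did total human counts and a filter of at least 1 CPM. Without a filter on low counts the calls were 1, 6, 1, 4, 5 and 1 in the order above. They were 2 for the difference of responses at 6 h and 2 between the lines at 0 h. Without that filter the estimated prior degrees of freedom were infinite, so every gene took its spread from the trend. The SE of CXCL8 at 6 h in SPT6-AID cells was then 0.28, against 1.86. Apart from fly totals, the shares of all genes called in the settings of this paragraph are not printed here. The counts of the 10 genes in those settings are therefore not set against a background. Leaving out libraries gave 0 to 2 calls at 6 h in SPT6-AID cells, 0 to 1 at 6 h in PAF1-AID cells and 0 to 1 between 6 h and 2 h in SPT6-AID cells. No called value changed its sign; among the 90 values of the 10 genes in 9 comparisons, 19 that were not called did so under fly totals and 4 to 15 did so in each setting without 1 library.

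The fall of RELA at 6 h in SPT6-AID cells was called in 21 of 25 alternatives, over which its value ran from −0.97 to −0.44; the call was lost without SPT6-AID 0 h replicate 1, without 6 h replicate 2 and, in the added settings, without replicate 1 (adjusted p = 0.0677) or replicate 2 (adjusted p = 0.106). Its value between 6 h and 2 h was called in 15 of 25.

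The labels do not say what a replicate number marks. Same-numbered libraries deviated together, with correlations across genes of 0.57 to 0.66 in SPT6-AID and 0.49 to 0.53 in PAF1-AID, but each comparison holds 2 such pairs only. With the number as a replicate block the calls were 4, 8, 2, 5, 7 and 2 in the order above and 1 and 7 for the difference of responses at 2 h and 6 h. At 2 h they were NFKBIA (adjusted p = 9.22e-05), TNFAIP3, BIRC3 and CXCL8 (−0.99, SE 0.20, adjusted p = 0.00315) in SPT6-AID cells, and BIRC3 and CXCL8 in PAF1-AID cells; at 6 h they were all but RELB and TNFAIP3 in SPT6-AID cells, and NFKB2, BIRC3, CXCL8, CXCL1 and ICAM1 in PAF1-AID cells, and RELA was called in the difference of responses at 6 h (adjusted p = 0.00191). Of the 64 other pathway genes, 13 rose and 25 fell at 6 h in SPT6-AID cells under the block. Over all 20791 genes the 4 counts against 0 h became 1613, 10683, 1452 and 7958. Their split by direction under the block is not printed here. Nor are the all-gene counts for 6 h against 2 h or for the difference of responses. The 13 rises and 25 falls are therefore not set against a background by direction. The calls under the block for 6 h against 2 h and for the difference of responses have no background here. No block was possible between the lines at 0 h, which share no number.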

Other observations

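Of the 73 other pathway genes, 9 had too few counts to be tested, and they include the cytokine genes TNF, IL1B and IL6. TNF had at most 13 counts in a library, IL1B at most 8 and IL6 at most 1. CXCL10, SELE and VCAM1 had 0 counts in all 12 libraries. BCL2A1 had 2 to 11 counts.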
